A study of Mus musculus with 16 samples.

Results

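Major histocompatibility complex (MHC) class II genes were examined in CD11b+ cells sorted from mouse brain. The 7 genes were taken by symbol from a table of 55385 genes, where they stand as H2.Aa, H2.Ab1, H2.Eb1, H2.DMa, H2.DMb1, Cd74 and Ciita (H2-Aa, H2-Ab1, H2-Eb1, H2-DMa and H2-DMb1 below). All 7 passed the filter on low counts that left 14513 genes for testing. Together they held between 0.127% and 0.475% of the counts of a library, with a median of 0.377% over 16 libraries. Ciita fell with the 5xFAD transgenes and H2-DMa rose when both Card9 genotypes were averaged, whereas transcripts of the peptide-binding chains and of Cd74 passed the test in no comparison.

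MHC class II molecules are heterodimers of an alpha and a beta chain that present peptides from endocytosed proteins to CD4+ T cells. H2-Aa and H2-Ab1 encode the alpha and beta chains of I-A, and H2-Eb1 encodes the beta chain of I-E. The invariant chain, encoded by Cd74, blocks the peptide groove of new dimers and guides them to endosomes, where proteases cut it down to a short fragment. The heterodimer of H2-DMa and H2-DMb1 then exchanges that fragment for peptide. Ciita encodes the class II transactivator, a coactivator that binds no DNA itself and is recruited by factors assembled on the X and Y boxes of class II promoters. Resting microglia carry little class II, and dendritic cells, B cells and macrophages of the brain borders carry more.

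RNA was sequenced from female mice at 20 weeks of age, in 4 libraries for each of 4 genotypes. These are WT mice (Card9 intact, no 5xFAD transgenes), CARD9-deficient mice without the transgenes (Card9-/-), 5xFAD mice with Card9 intact, and CARD9-deficient 5xFAD mice (Card9-/-5xFAD). CARD9 is a signaling adaptor of myeloid cells, its deletion is germline and so present in every cell, and the 5xFAD transgenes express mutant human amyloid precursor protein and presenilin under the neuronal Thy1 promoter, so that amyloid plaques form in the brain. Meninges and choroid plexus were removed before the sort on CD11b beads, which also takes other myeloid cells. The study checked the sort by flow cytometry and reported that most cells were CD11b-high and CD45-intermediate. No source used here says whether a library is 1 mouse, so that p-values measure the spread between these libraries, which may be technical.

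Between 2970148 and 19333325 reads were counted on genes per library. Card9 itself did not separate the labelled genotypes, with 13.6 to 51.3 CPM (counts scaled to library size, with TMM factors) in WT, 16.7 to 34.8 in libraries labelled Card9-/-, 15.6 to 33.5 in 5xFAD and 9.73 to 33.7 in libraries labelled Card9-/-5xFAD. Which part of the gene was deleted is not given in the sources used here, so every direction with Card9 genotype rests on the labels. Microglia markers were abundant (11 genes such as P2ry12 and Tmem119, summed to 15957 to 37145 CPM). In 4 libraries (WT 1, Card9-/- 4, 5xFAD 1 and Card9-/-5xFAD 4, each the lowest of its genotype) the sum was at most 19759 CPM, against at least 22516 in the other 12. The sum of 7 neutrophil markers was 2091 to 6300 CPM in those 4 libraries and 486 to 2369 CPM in the other 12, so the transgene differences of the 7 genes are also given without them. Pax5 and Ms4a1, which mark B cells, were near absent (Pax5 at most 1 and Ms4a1 at most 3 counts in a library), while Ighm lay between 361 and 1074 CPM.

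To show what the transactivator acts on, the promoters of 2 classical chains were read from RefSeq (GRCm38.p6, the assembly of the mm10 build used for alignment). The windows span 250 bases before and 50 bases after a transcription start, and were present in the RefSeq table for H2-Aa, H2-Eb1, H2-DMa and H2-DMb1 among the 7 genes. Capitals mark the X box core (AGNAAC followed directly by NGATG), the X2 box or cyclic AMP response element (TGACGTCA) and the Y box, a reverse CCAAT motif (TGATTGG), each searched on both strands, with no overlap between them in these stretches. The stretch of H2-Aa lies at chr17:34287857-34287933 on the minus strand and that of H2-Eb1 at chr17:34305746-34305822 on the plus strand, both upstream of the annotated gene.
H2-Aa: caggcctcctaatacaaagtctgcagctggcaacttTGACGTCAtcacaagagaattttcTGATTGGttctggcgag
H2-Eb1: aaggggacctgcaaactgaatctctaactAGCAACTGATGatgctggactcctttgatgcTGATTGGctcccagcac
The Y box starts 50 bases before the RefSeq start of H2-Aa and 61 bases before that of H2-Eb1, where 20 bases part it from the X box. The window of H2-DMb1 also holds the X and the Y box, and neither window of H2-DMa holds any of the 3 motifs. Of 32851 promoter windows, 0.298% hold the X box core, 1.79% the X2 box, 7.82% the Y box and 0.0244% (8 windows) the X and Y boxes together. A match of letters is a description of the sequence, and no binding was measured.

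The chains, H2-DMa and H2-DMb1 are encoded close together on chromosome 17 (GENCODE M21, GRCm38): H2-DMa at chr17:34119541-34139101, H2-DMb1 at chr17:34153072-34160230, H2-Ab1 at chr17:34257689-34269419, H2-Aa at chr17:34282744-34287823 and H2-Eb1 at chr17:34305867-34316674. Cd74 lies apart at chr18:60803848-60812652 and Ciita at chr16:10480059-10528418. Only H2-Aa is on the minus strand. Per kilobase of exon, Cd74 had the highest mean level in every genotype (415 to 588 CPM per kb), followed by H2-Ab1 (252 to 333 CPM per kb). H2-Eb1, H2-Aa, H2-DMa and H2-DMb1 followed with means between 78.6 and 258 CPM per kb and an order that changed with genotype. Ciita was lowest, with means of 0.298 to 1.17 CPM per kb and 11 to 265 counts in a library, so its values carry more counting error than those of the other 6 genes, of which none had under 202 counts in a library.

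**Figure D1:**
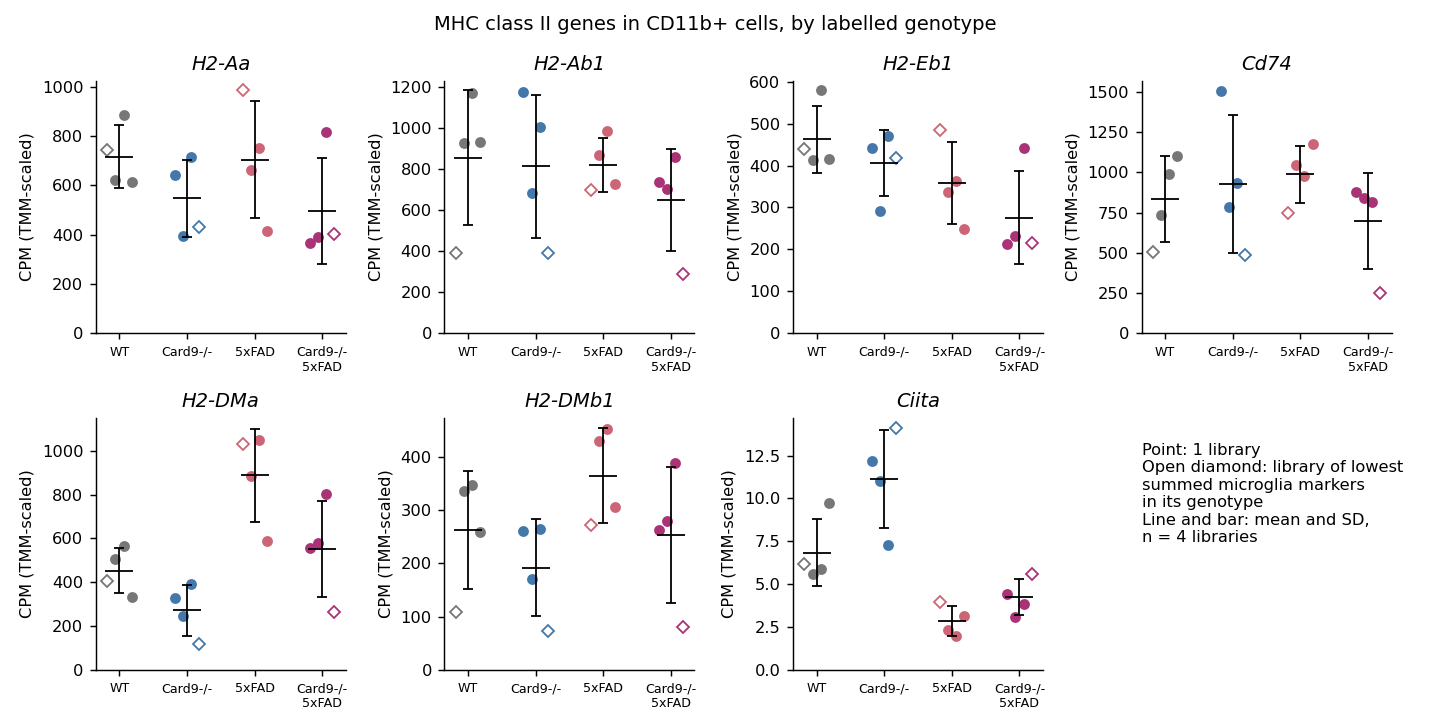
Level of each of the 7 genes (CPM on a linear axis from 0) in the 16 libraries by labelled genotype, with the mean and SD of 4 libraries; open diamonds are the libraries of lowest summed microglia markers in each genotype. Ciita lies at 1.98 to 5.61 CPM in the 8 libraries with the transgenes and at 5.56 to 14.1 CPM in the 8 without. In libraries labelled Card9-/- H2-Ab1 runs from 391 to 1174 CPM and Cd74 from 483 to 1506 CPM.

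The first comparisons asked how the genes differed with the 5xFAD transgenes, on either Card9 genotype. Ciita, the transactivator, was the gene that fell. Its level was 6.16, 5.56, 5.85 and 9.74 CPM in WT libraries 1 to 4, and 3.94, 2.33, 1.98 and 3.13 CPM in 5xFAD libraries 1 to 4. The ranges did not overlap, and the fitted level was 2.388-fold lower in 5xFAD than in WT (log2 fold change -1.26, SE 0.34, FDR 0.0891, edgeR's quasi-likelihood test with Benjamini-Hochberg adjustment). In libraries labelled Card9-/- it was 12.2, 11, 7.29 and 14.1 CPM, against 4.44, 3.08, 3.82 and 5.61 CPM in those labelled Card9-/-5xFAD. These ranges did not overlap either, and the fitted level was 2.645-fold lower with the transgenes (log2 fold change -1.40, SE 0.34, FDR 0.0575).

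Both falls were near the threshold of 0.1. That against WT passed in 4 of the 16 fits that left out 1 library (without Card9-/- 3, Card9-/- 4, 5xFAD 1 or Card9-/-5xFAD 4) and missed it without any of the other 12, with FDR values up to 0.337. The fall in libraries labelled Card9-/- passed in 11 of 16 such fits and missed the threshold without Card9-/- 1, Card9-/- 2, Card9-/-5xFAD 1, Card9-/-5xFAD 2 or Card9-/-5xFAD 3, with FDR values up to 0.168. Averaged over both Card9 genotypes, the fall was 2.513-fold (log2 fold change -1.33, SE 0.24, FDR 0.00265), and the FDR lay between 0.00236 and 0.00879 when any 1 library was left out. Without the 4 libraries of low microglia markers, the averaged log2 fold change was -1.42 (FDR 0.00133). By mean CPM the order of genotypes was libraries labelled Card9-/- (11.1 ± 2.87, SD, n = 4), WT (6.83 ± 1.95), libraries labelled Card9-/-5xFAD (4.24 ± 1.07) and 5xFAD (2.85 ± 0.876). Neighbors in that order overlapped in range.

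Of the 7 genes, 1 (Ciita) was lower in 5xFAD than in WT where 0.524% of all tested genes were, and 0 were higher where 1.57% were. Between the libraries labelled Card9-/-5xFAD and Card9-/-, again 1 was lower (0.482% of all genes) and 0 were higher (1.49%). With both Card9 genotypes averaged, 1 was lower (5.73%) and 1 higher (5.62%). Ranges did not overlap for 2 of 7 genes between 5xFAD and WT (H2-DMa and Ciita, 8.04% of all genes) and for 1 between libraries labelled Card9-/-5xFAD and Card9-/- (Ciita, 7.01%). The median log2 fold change over the 7 genes was -0.03 in the first and -0.33 in the second of these comparisons. Over all tested genes it was -0.15 in both, which moved to -0.0057 and 0.025 when genes needed 10 counts in every library, and with that filter the log2 fold changes of Ciita were -1.11 and -1.26.

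Markers of other cells that carry class II also fell with the transgenes. Of 8 markers of border-associated macrophages, 5 fell over both Card9 genotypes and 0 rose: Mrc1 (log2 fold change -1.24, FDR 0.000942), F13a1 (-1.36, FDR 0.00659), Lyve1 (-1.04, FDR 0.00783), Cd163 (-1.30, FDR 0.0114) and Siglec1 (-1.10, FDR 0.0827). Of 8 dendritic cell markers tested of 9 listed, 4 fell and 0 rose: Ccr7 (-1.60, FDR 0.0310), Clec10a (-1.24, FDR 0.0386), Itgae (-0.97, FDR 0.0541) and Zbtb46 (-0.84, FDR 0.0599). By sign alone 6 of these 8 were lower and 2 higher, and Ccr7 had only 2 to 34 counts in a library. On either Card9 genotype alone 0 dendritic cell markers passed, whereas 3 macrophage markers fell in 5xFAD against WT and 1 in the libraries labelled Card9-/-. The summed level of the macrophage list was 1073 to 1739 CPM in WT against 619 to 853 in 5xFAD, and 1003 to 1949.7 in libraries labelled Card9-/- against 432 to 1836 in those labelled Card9-/-5xFAD. For the dendritic cell list it was 196 to 346 CPM in WT against 143 to 197 in 5xFAD, and 150.5 to 372 against 111 to 206 in the corresponding Card9-/- labelled libraries. In the 12 libraries with higher microglia markers, a split made after seeing the data, neither sum overlapped between libraries with and without the transgenes. The matching share of all genes is not given here. Abundant genes weigh most in such sums, as Cd209a does in the dendritic cell list (mean 154 CPM in WT and 79.8 CPM in 5xFAD). No marker of either list was at 0 in all libraries of a genotype. Of the further lists, 3 of 6 monocyte markers, 1 of 4 T or NK cell markers (Cd4) and 1 of 7 neutrophil markers (Mpo) fell, and 1 of 11 microglia markers (Trem2) rose. Over all tested genes 5.73% fell and 5.62% rose. B cell markers gave 0 calls of 3 tested, and Ighm had an averaged log2 fold change of 0.18 (SE 0.28, FDR 0.737). In sorted bulk RNA, fewer cells of a type and less RNA per cell cannot be told apart, and the part of these cells in the fall of Ciita was not tested.

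**Figure D2:**
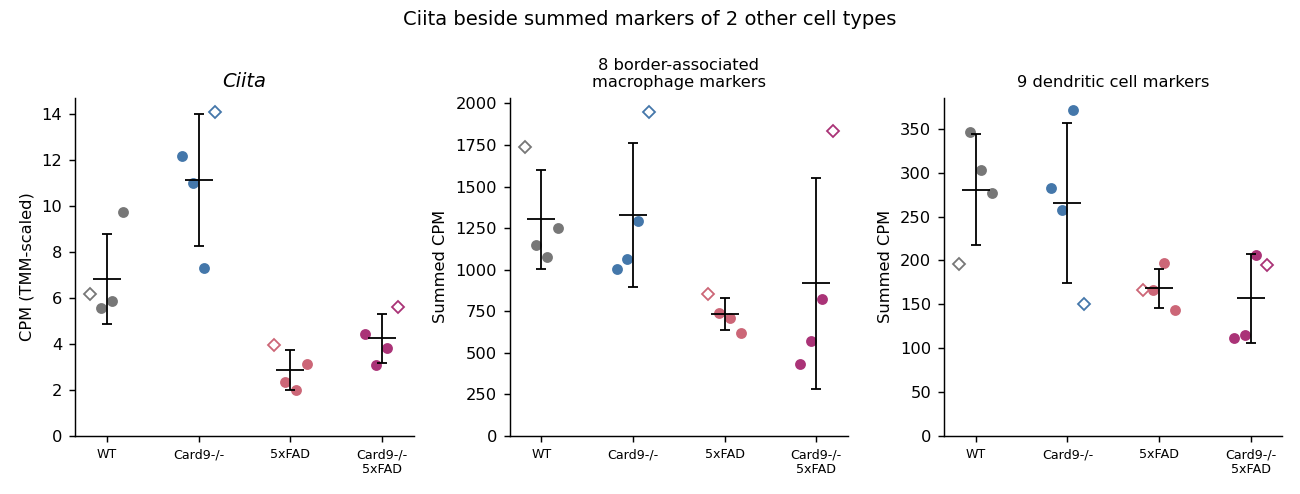
Ciita (CPM) beside the summed CPM of 8 border-associated macrophage markers and 9 dendritic cell markers in the 16 libraries by labelled genotype, with the mean and SD of 4 libraries; open diamonds are the libraries of lowest microglia markers. All 3 quantities had lower means in libraries with the transgenes, and the macrophage sum of Card9-/-5xFAD 4 (1836 CPM) stands above the 3 other libraries of its genotype (432 to 825 CPM).

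H2-DMa, the alpha chain of the peptide exchange factor, was the 1 gene of the 7 that rose, in the averaged comparison. Its level was 407, 506, 565 and 331 CPM in WT libraries 1 to 4 and 1031, 886, 1051 and 589.6 CPM in 5xFAD libraries 1 to 4. Every 5xFAD library lay above every WT library, but with a log2 fold change of 0.98 (SE 0.39) the difference did not pass the adjustment (FDR 0.349, unadjusted p = 0.0228). It passed with 1 surrogate variable (FDR 0.0465) and without the 2 shallowest libraries (FDR 0.0727). Over all genes the surrogate variable gave 1176 calls higher and 892 lower, against 228 and 76 in the main fit. In libraries labelled Card9-/- H2-DMa was 329.8, 245, 391 and 117 CPM, against 555, 579, 801 and 266 CPM in those labelled Card9-/-5xFAD. Here the ranges overlapped through Card9-/-5xFAD 4, the shallowest library, with a log2 fold change of 1.02 (SE 0.39, FDR 0.266). That difference passed with a replicate block (FDR 0.0757), with 1 surrogate variable (FDR 0.0306) and without the 4 libraries of low microglia markers (1.03, FDR 0.045). Here the surrogate variable gave 1460 calls higher and 1107 lower over all genes, against 216 and 70 in the main fit. Averaged over both Card9 genotypes, H2-DMa rose 1.998-fold (log2 fold change 1.00, SE 0.27, 95% interval 0.42 to 1.58, FDR 0.0395). The call held in 16 of 16 fits that left out 1 library, with FDR values from 0.0142 to 0.0999, and was lost without the filter on low counts (FDR 0.11). Without the 4 libraries the averaged log2 fold change of H2-DMa was 0.96 (FDR 0.0057) and that of H2-DMb1 below was 0.41 (FDR 0.11).

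H2-DMb1, which encodes the partner beta chain, had 108, 337, 348 and 259 CPM in WT, 272, 430, 453 and 306 in 5xFAD, 261, 171, 265 and 72.0 in libraries labelled Card9-/- and 263, 279.9, 389 and 80.9 in those labelled Card9-/-5xFAD. The ranges with and without the transgenes overlapped on both Card9 genotypes, and the averaged log2 fold change with the transgenes was 0.44 (SE 0.34, 95% interval -0.29 to 1.16, FDR 0.475), an interval that includes the change of its partner. The counts of H2-DMb1 may be shared with the neighboring H2-DMb2, since their longest protein-coding transcripts were 94.6% identical over 1219 aligned bases. H2-DMb2 itself had 6.01 to 43.5 CPM and an averaged log2 fold change of -0.26 (FDR 0.659). H2-DMa shares 360 exon bases with Brd2 on the other strand, and strand use in the counting is not given in the sources used here. Brd2 had an averaged log2 fold change of -0.48 (FDR 0.179), opposite in sign to that of H2-DMa. Ciita likewise shares 329 exon bases with Dexi on the other strand, whose averaged log2 fold change was -0.66 (SE 0.51, FDR 0.471). Dexi had the sign of Ciita and 34 to 848 counts in a library. Its genotypes had the same order of mean CPM: 29.7 (Card9-/- label), 21.5 (WT), 16.9 (Card9-/-5xFAD label) and 15.1 (5xFAD). Its ranges overlapped between genotypes. The highest library was the same for both genes in WT (WT 4, Dexi 40.0 CPM) and in no other genotype. The part of these overlaps was not tested.

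The peptide-binding chains passed the test in no comparison. H2-Aa, the I-A alpha chain, had 745, 622, 886 and 616 CPM in WT, 989, 661, 753 and 414 in 5xFAD, 643, 396, 717 and 432 in libraries labelled Card9-/- and 366, 392, 818 and 403 in those labelled Card9-/-5xFAD. The transgene difference on the log2 scale was -0.03 with Card9 intact (95% interval -0.75 to 0.70) and -0.15 in the labelled absence of Card9 (-0.87 to 0.58). H2-Ab1, the I-A beta chain, ranged from 392 to 1169 CPM in WT, 697 to 984 in 5xFAD, 391 to 1174 in libraries labelled Card9-/- and 289.5 to 860.4 in those labelled Card9-/-5xFAD. Its log2 differences with the transgenes were -0.06 (95% interval -0.92 to 0.80) and -0.33 (-1.19 to 0.53). The sign of both values with Card9 intact turned under other scalings, and that of H2-Aa in the labelled absence of Card9 turned when genes needed 10 counts in every library (0.053).

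H2-Eb1, the I-E beta chain, was 439, 414, 581 and 416 CPM in WT and 486, 337, 364 and 249 CPM in 5xFAD. In libraries labelled Card9-/- it was 443, 292, 471 and 417 CPM, and 212, 232, 441 and 215 CPM in those labelled Card9-/-5xFAD. On either Card9 genotype, 3 of 4 libraries with the transgenes lay below every library without them, and the ranges overlapped through the remaining library. The averaged log2 fold change of H2-Eb1 was -0.46 (SE 0.22, unadjusted p = 0.0475, FDR 0.213). It passed without Card9-/-5xFAD 3 (-0.63, FDR 0.0874) and with 1 surrogate variable (FDR 0.0556, with 3182 genes called lower against 831 in the main fit). Without 5xFAD 4 it was -0.22 (FDR 0.643), and without the 4 libraries of low microglia markers it was -0.47 (FDR 0.123) for H2-Eb1, -0.15 for H2-Aa (FDR 0.678) and -0.24 for H2-Ab1 (FDR 0.295). C57BL/6J mice, used in the crosses, carry a defective I-E alpha gene, so that the I-E beta chain lacks its partner at the cell surface. H2-Ea-ps, the I-E alpha pseudogene, had 0 to 3 counts per library, where H2-Eb1 had 538 to 7939. H2-Eb2, a related beta chain gene, had 0 to 7 counts per library.

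Cd74, the invariant chain, was 502, 736, 992 and 1101 CPM in WT and 749, 1044, 979 and 1179 CPM in 5xFAD. In libraries labelled Card9-/- it was 1506, 785, 937 and 483 CPM, and 881, 839, 817 and 249.9 CPM in those labelled Card9-/-5xFAD. The lowest library of each genotype was the one of lowest microglia markers. The log2 difference of Cd74 with the transgenes was 0.25 (SE 0.41, FDR 0.870) with Card9 intact and -0.41 (SE 0.41, FDR 0.754) in the labelled absence of Card9. Without the 4 libraries these were 0.21 (FDR 0.657) and -0.32 (FDR 0.421). A test of the difference between these 2 values gave -0.66 (95% interval -1.89 to 0.57, FDR 1.0). Over the 7 genes that interaction ran from -0.66 for Cd74 to 0.05 for H2-DMa. Of the 7 genes 0 passed, as did 0 of 14513 over all genes (0%), where 78 (0.537%) had an unadjusted p under 0.05.

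**Figure D3:**
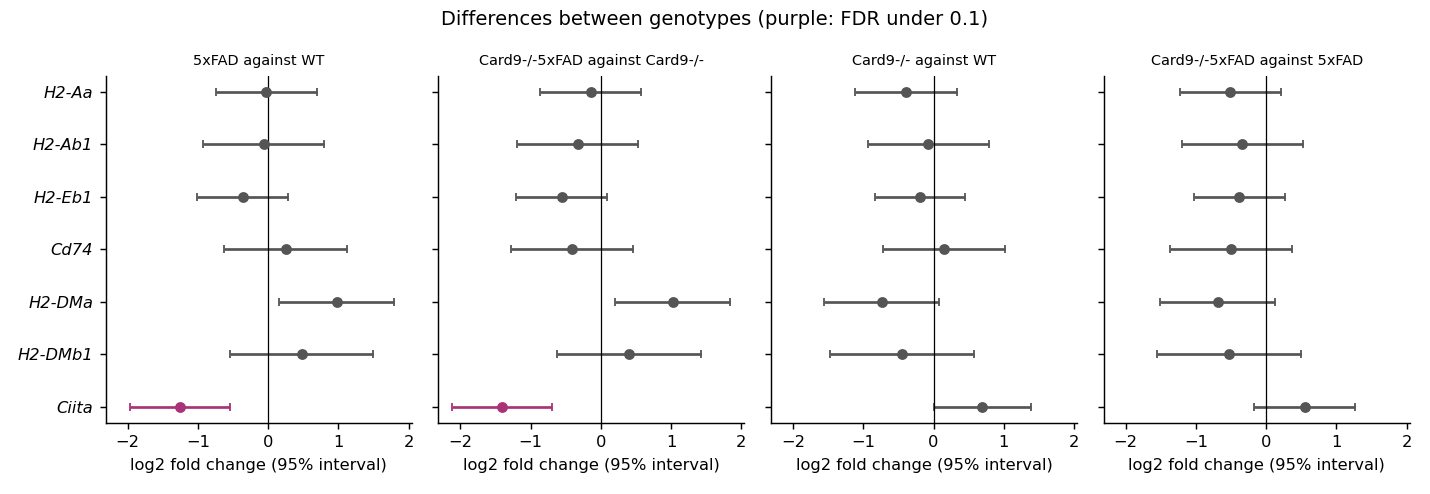
Log2 fold change of each gene (x axis) with its 95% interval in 4 comparisons of labelled genotypes, from edgeR's quasi-likelihood fit of 16 libraries; purple marks an FDR under 0.1. Purple appears for Ciita in both transgene comparisons (-1.26 and -1.40), the intervals of H2-DMa stand above 0 in both without passing the adjustment, and no gene is purple in the Card9 comparisons.

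The remaining comparisons asked how the genes differed with Card9 genotype. With the transgenes present in both groups, 0 of the 7 genes passed edgeR's test of the label Card9-/-5xFAD against 5xFAD. Of all 14513 genes 0 passed too (0%, with 366 or 2.52% at an unadjusted p under 0.05, none of them among the 7). DESeq2 also called 0 of the 7, with 1 gene higher and 1 lower among 55385. The log2 fold change was -0.51 for H2-Aa, -0.34 for H2-Ab1, -0.38 for H2-Eb1, -0.69 for H2-DMa, -0.53 for H2-DMb1 and -0.50 for Cd74, and 0.55 for Ciita. Their 95% intervals all included 0, the widest reaching from -1.55 to 0.50 for H2-DMb1, so that differences of about that size were not excluded at this depth and number of libraries. No ranges were separate among the 7 genes, against 1.89% of all genes.

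Between libraries labelled Card9-/- and WT, 0 of 7 genes passed in edgeR or DESeq2. Of all genes 0 passed in edgeR (0%, with 597 or 4.11% at an unadjusted p under 0.05), and DESeq2 called 3 higher and 2 lower among 55385. Separate ranges were seen for 0 of 7 (2.66% of all genes). Ciita had the largest unadjusted difference upward, with a log2 fold change of 0.70 (95% interval 0.01 to 1.39, unadjusted p = 0.0475, FDR 0.970), and H2-DMa downward, with -0.74 (-1.56 to 0.08, FDR 0.970). Averaged over both transgene states, 0 of the 7 genes differed with the Card9 label in edgeR, where 0.0138% of all genes were higher and 0.0138% lower. In DESeq2 0 of the 7 differed too, where 9 genes were higher and 44 lower among 55385. In edgeR 2 of the 7 had an unadjusted p under 0.05, as did 9.12% of all genes. Ciita had an averaged log2 fold change of 0.62 there (SE 0.24, FDR 0.496) and H2-DMa of -0.71 (SE 0.27, FDR 0.507).

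Other genes of the pathway were read from a list of 44 symbols, of which 41 were listed and 39 tested. Between 5xFAD and WT, 2 of 39 rose and 0 fell (1.57% and 0.524% of all genes). Between libraries labelled Card9-/-5xFAD and Card9-/- 1 rose and 0 fell (1.49% and 0.482% of all genes). When 1 library was left out, 0 to 3 genes passed in each of these. Over both Card9 genotypes 8 rose and 1 fell (5 to 12 in all when 1 library was left out), where 5.62% of all genes rose and 5.73% fell. The median log2 fold change of the 39 genes was 0.04 against -0.15 over all genes. The cathepsins, lysosomal proteases of which cathepsin S and cathepsin L cut the invariant chain, made up 6 of the 8. Ctsl rose 3.050-fold (FDR 0.00223), from 610.4 to 1424 CPM in WT to 2401 to 3889.6 CPM in 5xFAD. Ctsz rose 2.927-fold (FDR 0.00437), Ctsb 2.039-fold (FDR 0.0987), Ctsd 1.991-fold (FDR 0.0231), Ctsh 1.877-fold (FDR 0.0379) and Ctss, the most abundant gene of the list, 1.817-fold (FDR 0.0275). Ctsl passed on either Card9 genotype alone, and Ctsz in 5xFAD against WT.

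H2-Oa and H2-Ob, whose products form the dimer that restrains H2-DM, were the other 2 that rose. H2-Oa rose 2.093-fold (SE 0.30 on the log2 scale, FDR 0.0474), from 35.2 to 55.9 CPM in WT to 62.0 to 107 CPM in 5xFAD, and from 4.91 to 37.2 to 35.6 to 77.3 CPM in the Card9-/- labelled libraries. H2-Ob rose 1.526-fold (SE 0.21, FDR 0.0891), from 40.3 to 85.0 CPM in WT to 110.1 to 132 CPM in 5xFAD, where these ranges did not overlap. In libraries labelled Card9-/- H2-Ob had 59.1 to 129 CPM, which covers the 74.1 to 111 CPM of those labelled Card9-/-5xFAD (log2 fold change 0.29, FDR 0.758). Cxcr2, a chemokine receptor to which MIF binds and a gene of neutrophils, fell (log2 fold change -0.85, FDR 0.0466). The factors of the X and Y box complex gave 0 calls, with averaged log2 fold changes of -0.59 for Rfx5 (SE 0.39, FDR 0.388), -0.35 for Rfxap, 0.23 for Rfxank and 0.05 for Nfya. Irf1, a factor through which interferon-gamma induces Ciita, had an averaged log2 fold change of -0.51 (SE 0.25, FDR 0.237), and Ifng had 0 to 15 counts in a library. Marker genes of activated, disease-associated microglia moved with the transgenes at the same time, 11 of 12 rising over both Card9 genotypes with a median log2 fold change of 3.20. With Card9 genotype 0 of the 39 genes passed in edgeR or DESeq2, with transgenes, without them or averaged. Over all genes edgeR called 0%, 0% and 0.0138% higher in these comparisons, and the same shares lower. DESeq2 called 1 gene higher and 1 lower, 3 and 2, and 9 and 44 among 55385. In edgeR 0, 2 and 4 of the 39 had an unadjusted p under 0.05, where 2.52%, 4.11% and 9.12% of all genes did.

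Over all 16 libraries, the 7 genes did not vary as 1 unit within genotypes. After each genotype's mean log2 CPM was subtracted, H2-Aa and H2-Eb1 had a Pearson r of 0.945 (Spearman rho 0.906) over 16 libraries, and H2-Ab1 and H2-DMb1 of 0.98 (rho 0.90). H2-Ab1 and Cd74 had an r of 0.899 and H2-DMa and H2-DMb1 of 0.828. The 2 chains of I-A, by contrast, had an r of 0.369. Ciita had a negative r with each of the other 6 genes, from -0.124 with H2-Eb1 to -0.632 with H2-DMa. The r of Ciita with Cd74 turned from -0.289 to 0.559 without the 4 libraries of low microglia markers, and to 0.0905 without the 2 libraries farthest from the median. These values describe libraries that also differ in depth and in summed cell type markers, and they carry no test.

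The ratio of H2-Aa to H2-Ab1 in CPM was 1.11 to 1.90 in the 4 libraries of low microglia markers and 0.496 to 0.951 in the other 12. Every one of the 4 lay above every one of the 12, across all 4 genotypes. The ratio of H2-DMa to H2-DMb1 was 1.63 to 3.8 in the 4 and 1.26 to 2.32 in the 12. Without the 4 libraries the r of H2-Aa with H2-Ab1 was 0.83 and with H2-DMb1 0.923, and that of Cd74 with H2-DMb1 went from 0.866 to 0.0589. Pairs of the chromosome 17 genes then had an r of 0.764 (H2-Ab1 with H2-DMa) to 0.991 (H2-Aa with H2-Eb1). The slope of log2 CPM on log2 exon length over genes, relative to the mean library, was -0.224 to -0.135 in the 4 libraries and -0.159 to 0.285 in the other 12. The part of gene length, neutrophil RNA or other cells in the ratios was not tested.

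**Figure D4:**
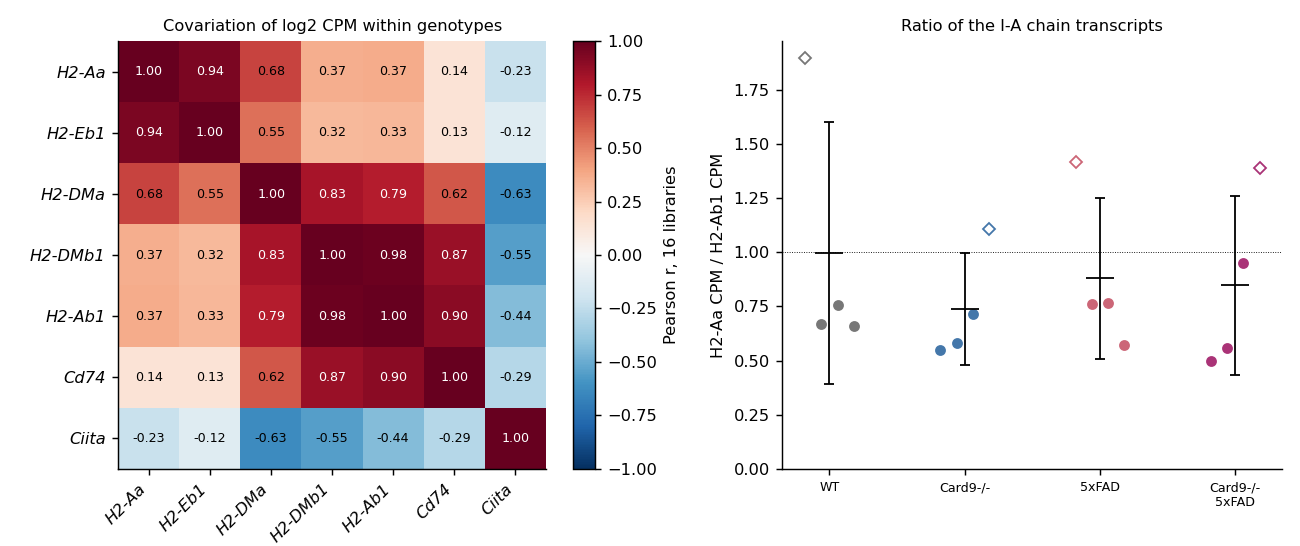
Left, Pearson r between genes of log2 CPM after each genotype's mean was subtracted, over 16 libraries (color scale from -1 to 1); right, the ratio of H2-Aa to H2-Ab1 CPM in each library with the mean and SD of 4, open diamonds being the libraries of lowest microglia markers and the dotted line a ratio of 1. Over these 16 libraries H2-Aa had its highest r with H2-Eb1 (0.945) and H2-Ab1 with H2-DMb1 (0.98). Without the libraries of the open diamonds, H2-DMb1 had an r of 0.923 with H2-Aa and 0.857 with H2-Ab1. The open diamonds stand at 1.11 to 1.90, above all filled points.

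The spread within genotypes lay between the 14.2 percentile (H2-Eb1) and the 69.6 percentile (H2-DMb1) of all tested genes. The SD of log2 CPM around the genotype means was 0.375 for H2-Eb1, 0.38 for Ciita, 0.45 for H2-Aa, 0.571 for H2-DMa, 0.621 for H2-Ab1, 0.626 for Cd74 and 0.792 for H2-DMb1, against a median of 0.622 over all tested genes. The genes whose pattern within genotypes was most like the mean of the 7 were Cd9 (r 0.983), Lyz2 (0.982), Mrpl28 (0.976), Polr1c (0.976), Cd68 (0.975), Mrto4 (0.97), Lrrc70 (0.966), Selenof (0.965), Psma1 (0.962) and Smarce1.ps1 (0.961), over 16 libraries.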

How the data were processed

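RNA of CD11b+ cells from mouse brain was measured in 16 libraries. The authors aligned reads to mm10 with HISAT2, filtered them with SAMtools and counted them per gene with HTSeq, and deposited whole-number read counts without normalization; versions, annotation and strand setting are not given in the sources used here. All values were computed from these counts.

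Counts were TMM-normalized and tested in R 4.3.3 with edgeR 4.0.16 (glmQLFit, glmQLFTest; filterByExpr, minimum count 10), in 1 fit of 16 libraries with 4 groups, with Benjamini-Hochberg adjustment over 14513 genes per contrast and a threshold of 0.1. SEs came from the log2 fold change and F, and log2 CPM used a prior count of 2. The tests were tested on simulated data. DESeq2 1.42.0, a surrogate variable (sva 3.50.0), a replicate block, other filters and left-out libraries were alternatives. Levels per kb used the merged exons of GENCODE M21 (GRCm38), and Biopython 1.88 aligned transcripts. Depth ran from 2970148 to 19333325 counts. Within genotypes, no 2 libraries were copies (24 pairs compared).

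The 7 genes and all lists were chosen with earlier results of these data known. Named beyond the 7 are genes of the pathway list past the threshold, its 5 most abundant, the 10 most alike genes and cell type markers; Card9, Brd2, Dexi and pathway genes that did not pass were named after their values were seen.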

Additional observations from a re-analysis of the deposited data

Results flagged for a closer look

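In 28 groups of 4 libraries (7 genes in 4 genotypes), 5 values stood far from the other 3 libraries of their genotype by Dixon's criterion, which flags about 1 group in 20 by chance. H2-Aa was 818 CPM and H2-Eb1 441 CPM in Card9-/-5xFAD 3, each the highest of its genotype, where the other 3 libraries had 366 to 403 and 212 to 232 CPM. H2-Eb1 was 581 CPM in WT 3, against 414 to 439. Cd74 was 249.9 CPM in Card9-/-5xFAD 4, the shallowest library, against 817 to 881. Ciita was 9.74 CPM in WT 4, against 5.56 to 6.16, and without that library the log2 fold change of 5xFAD against WT was -1.03 (FDR 0.337). The causes were not tested.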

How the results depend on the processing

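Of 903 values of single genes under alternatives, 838 kept their direction and side of the threshold, 26 lost and 8 gained a call, and 31 turned sign. The averaged fall of Ciita kept its call under all 25 alternatives run (FDR 5.99e-06 to 0.00913), as did 0 calls of the 7 genes in both pairwise Card9 comparisons and the interaction. The 1 call in 5xFAD against WT became 0 with DESeq2 size factors, no filter, at least 10 counts in every library, only the groups compared, and a threshold of 0.05, and 2 with 1 surrogate variable or without the 2 shallowest libraries. The 1 call in libraries labelled Card9-/-5xFAD against Card9-/- became 0 with no filter, only the groups compared, and a threshold of 0.05, and 2 with the replicate block, 1 surrogate variable, and without the 4 libraries of low microglia markers. Averaged over Card9 genotypes, the 2 calls became 1 with no filter and 4 with the surrogate variable, which also gave 1 call with Card9 loss averaged. Leaving out 1 library gave 0 to 1, 0 to 1 and 2 to 3 calls in these 3 transgene comparisons. The 2 pathway calls in 5xFAD against WT became 0 with no filter, 1 at 0.05, 6 with DESeq2, 13 with the surrogate variable, 6 without the 2 shallowest and 9 without the 4 libraries. The 1 pathway call in libraries labelled Card9-/- became 0 with no filter, only the groups compared, and at 0.05, 3 with DESeq2, 2 with the block, 9 with the surrogate variable, 3 without the 2 shallowest and 10 without the 4 libraries. The 9 averaged pathway calls became 4 with no filter, 19 with the surrogate variable, 14 without the 2 shallowest and 19 without the 4 libraries, and 0 became 4 with Card9 loss averaged and the surrogate variable. Leaving out 1 library gave 0 to 3, 0 to 3 and 5 to 12 pathway calls, the highest without Card9-/-5xFAD 4 in all 3 (and without Card9-/- 4 in the first). The fits without the 2 or the 4 libraries were chosen after seeing the data.

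Signs turned, in each case for an uncalled value, for H2-Aa in 5xFAD against WT (0.050 with DESeq2 size factors, 0.0027 with no filter, 0.12 with 10 counts in every library, 0.042 with DESeq2, 0.11 with only the groups compared), for H2-Ab1 there (0.012, 0.082, 0.0015 and 0.072 with the same settings but no filter, and 0.083 with the surrogate variable), for H2-Aa in libraries labelled Card9-/-5xFAD against Card9-/- (0.053 with 10 counts in every library), for H2-Ab1 in libraries labelled Card9-/- against WT (0.16 without the 2 shallowest libraries), and, averaged over Card9 genotypes with 10 counts in every library, for H2-Aa (0.085) and Cd74 (0.065). Leaving out 1 library moved those values from -0.23 to 0.31, -0.31 to 0.16, -0.51 to 0.037, -0.32 to 0.16, -0.27 to 0.17 and -0.19 to 0.083, and Cd74 in libraries labelled Card9-/- against WT from -0.18 to 0.37. Over all genes the averaged transgene calls were 816 higher and 831 lower, 949 and 668 with DESeq2 size factors, and 784 and 365 with 10 counts in every library. The surrogate variable gave 2545 and 3182 there, and 190 and 597 with Card9 loss averaged (2 and 2 in the main fit).

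Same-numbered libraries of different genotypes deviated together in some pairs and oppositely in others (24 pairs, r from -0.71 to 0.734, median 0.141). Of 16 libraries, 5 were closest to their own number, so the replicate numbers were not taken as pairs. With the replicate block H2-DMa gained a call in libraries labelled Card9-/-5xFAD against Card9-/- (FDR 0.0757). That was the 1 call among the 7 genes that the block changed in the 3 transgene comparisons. The FDR of Ciita with the block was 0.043 in 5xFAD against WT and 0.0283 in the labelled absence of Card9. The causes of these shifts were not tested. Depth limits Ciita most, with 11 counts in its lowest library.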
